A study of Mus musculus with 6 samples.

Results

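The 10 genes described here are the coactivators Yap1 and Wwtr1, the TEAD transcription factors Tead1, Tead2, Tead3 and Tead4, the angiomotin-like genes Amotl1 and Amotl2, and the target genes Ctgf and Cyr61. They were chosen by name, and each matched 1 row of the 23793 rows in the table. Their transcripts were sequenced in endothelial cells, the cells that line blood and lymph vessels, sorted by flow cytometry from the lungs of 7-day-old mice (postnatal day 7) of a mixed strain background. Mutant lungs gave 3 libraries and control lungs 3, lettered A to C in each group, and a mutant and a control with the same letter form a pair. Titles in both groups name Vegfa and Shh, and the series title speaks of Vegfa made by the epithelium. Alleles are not spelled out in the labels, nor the driver of any recombination or what the controls carry. As background, Shh-Cre is a driver often used to recombine genes in lung epithelium. The comparison asks which transcripts of the endothelium differ between mutant and control lungs. Whether the libraries come from separate animals is not stated, so p-values here measure only the spread between these samples, which may be technical.

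YAP (Yap1) and TAZ (Wwtr1) are coactivators that do not bind DNA themselves. In the nucleus they join a TEAD protein, and together they switch on genes such as Ctgf and Cyr61. The Hippo kinases Stk3, Stk4, Lats1 and Lats2 phosphorylate YAP and TAZ and keep them in the cytoplasm, and angiomotins bind them there. Cell contact, matrix stiffness and blood flow act on this pathway, and in endothelium it takes part in the growth of new vessels. Control of YAP and TAZ acts largely on the proteins, so RNA levels do not show how much of either is in the nucleus.

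The letters to which TEAD proteins bind are shown first, since the members include both the TEAD factors and genes they regulate. RefSeq start sites on build GRCm38 were matched for 7 of the 10 genes, by symbol or synonym, and the 250 bases before each start listed were searched for GGAATG on either strand. On the opposite strand the same motif reads CATTCC. It was present before at least 1 start of 5 of these 7 genes, namely Yap1, Wwtr1, Tead3, Amotl2 and Cyr61, and absent from the windows of Tead2 and Amotl1. Over all 27025 genes with such a window, 14.4% held it, and 4 of 13 other target genes did. Tead1, Tead4 and Ctgf had no entry. A match is a run of letters and was not tested as a binding site. The full window is given for Cyr61 and Wwtr1, where it lies outside the gene in RefSeq and holds no exon of it in GENCODE vM21, with the motif in capitals, 5' to 3' on the gene's strand.
Cyr61, chr3:145649986-145650235, minus strand: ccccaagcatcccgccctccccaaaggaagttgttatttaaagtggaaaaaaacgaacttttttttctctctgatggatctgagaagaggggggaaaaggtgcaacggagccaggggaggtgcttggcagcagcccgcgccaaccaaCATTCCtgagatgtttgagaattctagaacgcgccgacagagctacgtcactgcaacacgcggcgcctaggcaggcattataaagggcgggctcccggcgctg
Wwtr1, chr3:57575911-57576160, minus strand: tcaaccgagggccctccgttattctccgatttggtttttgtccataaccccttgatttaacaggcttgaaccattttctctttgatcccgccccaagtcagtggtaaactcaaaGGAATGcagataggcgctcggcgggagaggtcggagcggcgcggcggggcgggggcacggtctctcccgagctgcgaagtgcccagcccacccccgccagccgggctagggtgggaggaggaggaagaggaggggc
The motif began 103 bases before the start of Cyr61 and 136 bases before that of Wwtr1. For the other genes only the 30 bases around a motif are given. In Yap1, Amotl1 and Amotl2 the listed start lies inside the gene as RefSeq bounds it. The same holds for a further start of Wwtr1 and further starts of Tead3, and the windows before all these starts are not wholly outside the gene. For Yap1 that start is at 8004596, and the motif began 141 bases before it. The motif of Amotl2 lies within an annotated exon, as do 2 of the 3 motifs of Tead3, and the other one of Tead3 is shown.
Yap1, chr9:8004720-8004749, minus strand: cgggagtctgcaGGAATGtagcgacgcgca
Amotl2, chr9:102717727-102717756, plus strand: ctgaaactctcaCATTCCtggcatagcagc
Tead3, chr17:28350970-28350999, minus strand: gacgacgagcgaGGAATGgggtgcgcggga

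Levels were in FPKM, which scales the fragments of a gene to its transcript length and to the library. The 8 endothelial markers summed to 4506 to 4938 FPKM in mutant and 5559 to 6365 FPKM in control libraries, and none was absent. The difference between these sums lies largely in the junction gene Cldn5, at 1069 ± 239 FPKM in mutant and 2190 ± 210 FPKM in control libraries (SD, n = 3 each; limma adjusted p = 0.288). Pecam1 averaged 837 ± 94.4 FPKM in mutant and 805 ± 107 FPKM in control libraries, Cdh5 1081 ± 52.6 and 1159 ± 131 FPKM, and the VEGF receptor Kdr 243 ± 40.4 and 296 ± 16.5 FPKM (SD, n = 3 each). Markers of other cells were present at uneven levels, and none of those listed was at 0 in every library. The 12 mesenchymal markers summed to 312, 1289 and 578 FPKM in mutants A to C, against 429, 1381 and 1311 FPKM in controls A to C, lower in the mutant in each pair. Of the 11 tested, 8 had a negative and 3 a positive log2 fold change, with a median of -0.52, and 0 passed (limma). With the pair as a block 6 of these 11 had an unadjusted p under 0.05, each lower in the mutant, against 12.3% of all rows. In that fit 0 passed the adjusted test. Those of alveolar type 1 cells (7 genes) summed to 30.9 to 48.9 FPKM in mutant and 88.1 to 105 FPKM in control libraries. Most of that gap in FPKM was 1 gene, Hopx. It averaged 14.8 ± 8.07 FPKM in mutant and 59.5 ± 1.42 FPKM in control libraries (limma adjusted p = 0.262). Gprc5a and Spock2 were also lower, with log2 fold changes of -0.93 and -0.67 (limma adjusted p = 0.451 and 0.43). In these 3 genes, or 60% of the 5 tested, every mutant library was below every control library, against 6.57% of all rows. Of the 5 tested, 4 had a negative and 1 a positive log2 fold change, with a median of -0.67, and 0 passed (limma). Ager averaged 11.5 ± 2.14 FPKM in mutant and 12.5 ± 3.08 FPKM in control libraries. Pdpn averaged 3.66 ± 1.02 and 3.19 ± 0.677 FPKM (mutant and control, SD, n = 3 each, as for Hopx and Ager). The sums were 20.7 to 104 and 48.9 to 193 FPKM for 7 alveolar type 2 and airway markers, 5.22 to 35.5 and 8.7 to 38.2 FPKM for 6 leukocyte markers, and 11.4 to 39.5 and 14.9 to 49.97 FPKM for 4 mesothelial markers. The part of these cells in the results below was not tested. In such pooled cells, fewer cells of a type and less RNA per cell cannot be told apart. The absolute number of fragments is not known, and relative depth, read from the spacing of the lowest values, lay between 0.897 and 1.49 times that of control A.

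For none of the 10 members did the difference between mutant and control libraries pass the test. All 10 reached the minimum mean of 1 FPKM and were tested with limma on log2(FPKM + 1), with Benjamini-Hochberg adjustment over 11693 rows, and 0 passed an adjusted p of 0.05, against 0.137% of all rows. At an unadjusted p under 0.05 there was 1, Tead4, against 8.1% of all rows, and with the pair as a block there were 2, Tead4 and Cyr61, against 12.3%. With the block 0 members passed the adjusted test, against 0.0513% of all rows. The limma SE, intervals and p-values given below come from the fit without the block, except where the block is named. The members' log2 fold changes, mutant minus control, ran between -0.38 and 0.73 with a median of 0.19, beside a median of 0.02 over all rows tested. Of the 10, 8 had a positive and 2 a negative log2 fold change, and 54.6% of all rows had a positive one. The description labels of pair A carry another prefix than those of pairs B and C, with no meaning given. In pairs B and C alone the members' median was 0.18 and 0 passed. With 1 library left out, the members' median lay between 0.05 (without control A) and 0.25 (without control C), and was 0.06 without mutant C. The median over all rows was -0.005, 0.032 and -0.001 in these 3 settings.

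**Figure D1:**
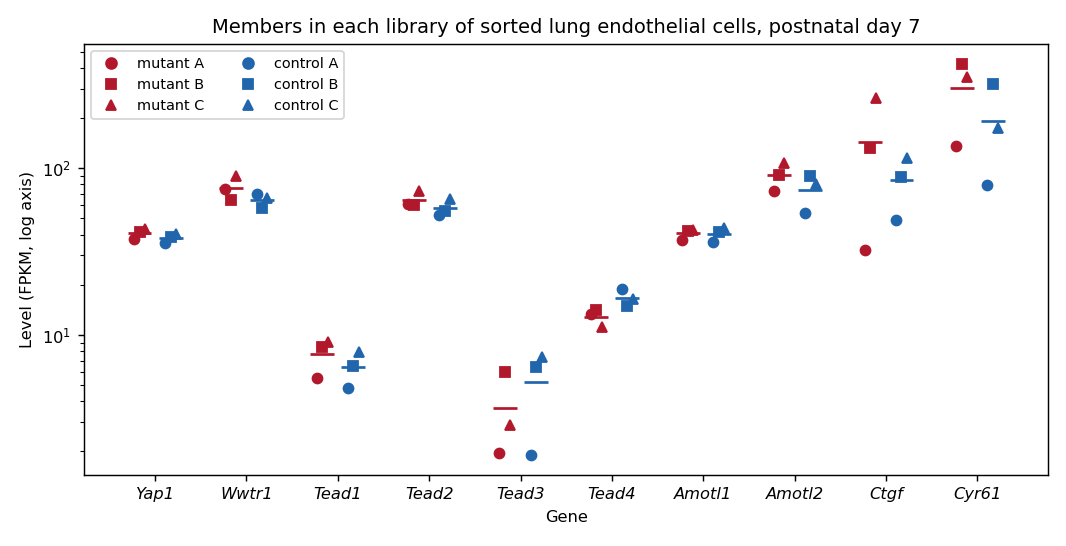
Level of each member in FPKM on a log axis, in the 3 mutant (red) and 3 control (blue) libraries, with marker shapes for replicates A, B and C and a horizontal line at each group's mean. By mean Cyr61 and Ctgf stand highest and Tead1 and Tead3 lowest, though Ctgf lies below Yap1 in mutant A (32.1 against 37.6 FPKM). Cyr61 and Ctgf spread most, and only for Tead4 do the groups not overlap.

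Of the coactivators, Yap1 varied little across the libraries and Wwtr1 more. Yap1 (chromosome 9, 7931999 to 8004638, GRCm38) stood at 37.6, 41.5 and 43.4 FPKM in mutants A to C and at 35.7, 38.5 and 40.0 FPKM in controls A to C. The groups overlapped, the lowest library was control A and the highest mutant C, and in each pair the mutant was slightly above its control. The log2 fold change of Yap1 was 0.10 ± 0.10 (SE, limma adjusted p = 0.839). Its 95% interval ran between 0.913 and 1.25 as a fold, on the log2(FPKM + 1) scale. The authors' deposited table gives Yap1 a log2 fold change of 0.10 with an unadjusted paired p of 0.0136. A predicted gene on the other strand overlaps exons of Yap1, and another those of Ctgf, and the strand setting of the counting was not given in the sources used here.

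Wwtr1, which encodes TAZ (chromosome 3, 57455644 to 57575910), was at 74.9, 64.9 and 89.5 FPKM in mutants A to C, against 69.9, 57.9 and 66.4 FPKM in controls A to C. Mutant C was the highest library and mutant B lay below controls A and C, so the groups overlapped. The log2 fold change was 0.23 ± 0.14 (adjusted p = 0.737), and the interval ran between 0.926 and 1.48 as a fold. TAZ transcripts stood above YAP transcripts in every library. The ratio of Wwtr1 to Yap1 was 1.87 ± 0.27 in mutant and 1.71 ± 0.23 in control libraries (SD, n = 3 each; exact permutation test, two-sided, p = 0.4, where 0.1 is the smallest p that 3 against 3 allows). The sum of both was 117 ± 13.9 and 103 ± 5.59 FPKM, in mutant and in control libraries (exact permutation p = 0.2). These permutation tests do not use the pairs, and both the ratio and the sum were higher in the mutant in each of the 3 pairs.

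The TEAD factors bring the coactivators to DNA, and Tead2 was the most abundant of them in every library. Tead2 (chromosome 7, 45215792 to 45233468) was at 60.7, 60.1 and 73.2 FPKM in mutants A to C, against 52.7, 55.2 and 65.4 FPKM in controls A to C. Pair C was the highest pair, the mutant was above its control in each pair, and the groups overlapped. The log2 fold change of Tead2 was 0.16 ± 0.13 (adjusted p = 0.795), with an interval between 0.906 and 1.38 as a fold. The authors' deposited table gives 0.16 with an unadjusted paired p of 0.0203. Of the 10 members, Yap1 and Tead2 were the 2 with a p under 0.05 in the authors' deposited table, where 7.53% of all rows with a p were under that value. An exon of Cd37, a gene of leukocytes, overlaps Tead2 on the other strand, so reads of the 2 genes may have been shared. Cd37 was listed between 0.538 and 5.85 FPKM.

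Tead4 was the member whose groups did not overlap. It stood at 13.4, 14.1 and 11.2 FPKM in mutants A to C, against 18.8, 14.8 and 16.4 FPKM in controls A to C. Every mutant library was below every control library, by a narrow margin between mutant B and control B. Tead4 (chromosome 6, 128227143 to 128300813) had a log2 fold change of -0.35 ± 0.13, with an unadjusted p of 0.0324 in limma and an adjusted p of 0.593, so it did not pass. Its interval ran between 0.633 and 0.973 as a fold. Groups did not overlap for 13.7% of all rows tested, 6.57% of rows with the mutant lower, and the count of 1 in 10 members is near these shares.

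Tead1 and Tead3 were low. Tead1 (chromosome 7, 112679356 to 112906784) was at 5.48, 8.51 and 9.06 FPKM in mutants A to C, against 4.78, 6.54 and 7.94 FPKM in controls A to C. Both A libraries were the lowest, and the log2 fold change of 0.22 ± 0.23 did not pass (adjusted p = 0.843). Tead3 (chromosome 17, 28331671 to 28350805) was at 1.97, 5.99 and 2.89 FPKM in mutants A to C, against 1.9, 6.37 and 7.34 FPKM in controls A to C. It was high in mutant B, control B and control C and low in the other libraries. The summed mesenchymal markers were high in the same libraries, at 1289 FPKM in mutant B, 1381 FPKM in control B and 1311 FPKM in control C, against 312, 578 and 429 FPKM in mutant A, mutant C and control A; their part in the level of Tead3 was not tested. The log2 fold change of Tead3 was -0.38 ± 0.47 (adjusted p = 0.879).

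As shares of the summed TEAD level, Tead2 held 74.5%, 67.8% and 76% in mutants A to C, against 67.4%, 66.6% and 67.4% in controls A to C. Tead4 held 16.4%, 15.9% and 11.6% in mutants A to C, against 24.1%, 17.8% and 16.9% in controls A to C. The shares of Tead2 were higher in each mutant library than in each control library, and those of Tead4 lower, each with an exact two-sided permutation p of 0.1, the smallest that 3 against 3 allows. These shares were chosen after the values were seen, and they sum to a whole, so they are not separate results. The summed TEAD level was 88.8 ± 7.37 FPKM in mutant and 86.1 ± 9.81 FPKM in control libraries (exact permutation p = 0.8).

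**Figure D2:**
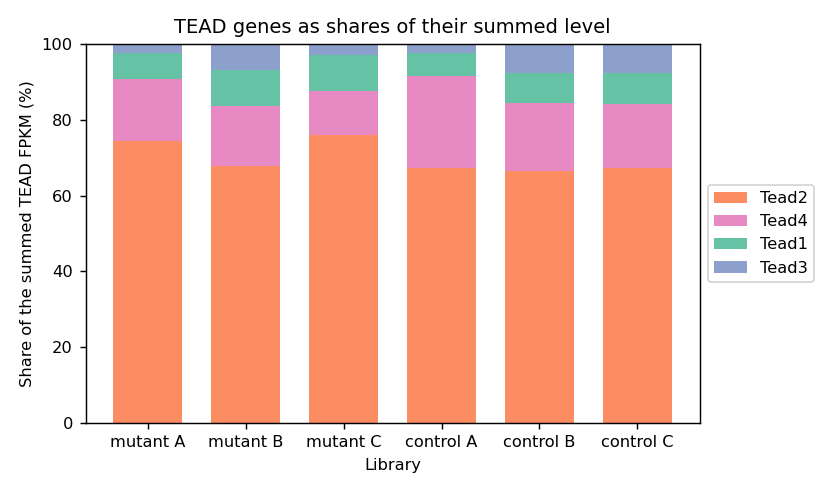
Share of each TEAD gene in the summed TEAD level, in percent of FPKM, for each library, mutants on the left. Tead2 forms the largest block in each bar, between 66.6% and 76%, and Tead4 is the next in size.

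Angiomotins hold YAP and TAZ at junctions and in the cytoplasm, and Amotl2 is itself a target of YAP. Amotl1 (chromosome 9, 14541966 to 14662974) was at 37.0, 42.3 and 42.7 FPKM in mutants A to C, against 36.1, 41.7 and 44.0 FPKM in controls A to C. Within each pair the values were nearly the same, and the A libraries were the lowest in both groups. The log2 fold change of 0.005 ± 0.11 (adjusted p = 0.993) had an interval between 0.835 and 1.21 as a fold, and its sign turned under several alternatives. Amotl2 (chromosome 9, 102717091 to 102733418) was at 73.3, 91.2 and 107 FPKM in mutants A to C, against 54.0, 89.6 and 79.9 FPKM in controls A to C. It was lowest in control A and highest in mutant C, and pair B was nearly level. Its log2 fold change was 0.29 ± 0.22 (adjusted p = 0.787), with an interval between 0.853 and 1.76 as a fold. The third gene of the family, Amot, was at 6.53 ± 0.307 FPKM in mutant and 5.42 ± 1.01 FPKM in control libraries (log2 fold change 0.24 ± 0.14, adjusted p = 0.722), and its groups did not overlap.

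Cyr61 and Ctgf encode secreted matrix proteins of the CCN family and are the targets most used to read YAP and TAZ activity. Cyr61 (chromosome 3, 145646971 to 145649985) was at 136, 424 and 351 FPKM in mutants A to C, against 79.3, 320 and 175 FPKM in controls A to C. The A libraries were the lowest of each group and the B libraries the highest, and in each pair the mutant was above its control. Within pairs A, B and C the log2 differences were 0.77, 0.41 and 1.0. Without regard to the pairs the log2 fold change was 0.73 ± 0.59 (adjusted p = 0.797), and its interval ran between 0.623 and 4.4 as a fold. Without control A this fold change was 0.21, and without mutant A 1.23, on the log2 scale. With the pair as a block the SE was 0.15 and the unadjusted p 0.00393, and the adjusted p of 0.248 did not pass. The authors' deposited table gives a log2 fold change of 0.73 and an unadjusted paired p of 0.0526 for Cyr61.

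Ctgf (chromosome 10, 24595442 to 24598683) was at 32.1, 133 and 263 FPKM in mutants A to C, against 48.8, 89.1 and 115 FPKM in controls A to C. Mutant A was the lowest and mutant C the highest of all 6 libraries, an 8.2-fold range within the mutant group, against 2.36-fold within the controls. Within pairs A, B and C the log2 differences were -0.59, 0.57 and 1.18. The log2 fold change was 0.39 ± 0.73 (adjusted p = 0.918), with an interval between 0.392 and 4.38 as a fold, and it was -0.27 without mutant C. The ratio of Cyr61 to Ctgf was 4.24, 3.19 and 1.33 in mutants A to C, against 1.62, 3.59 and 1.52 in controls A to C, so these targets did not keep 1 ratio across the libraries.

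**Figure D3:**
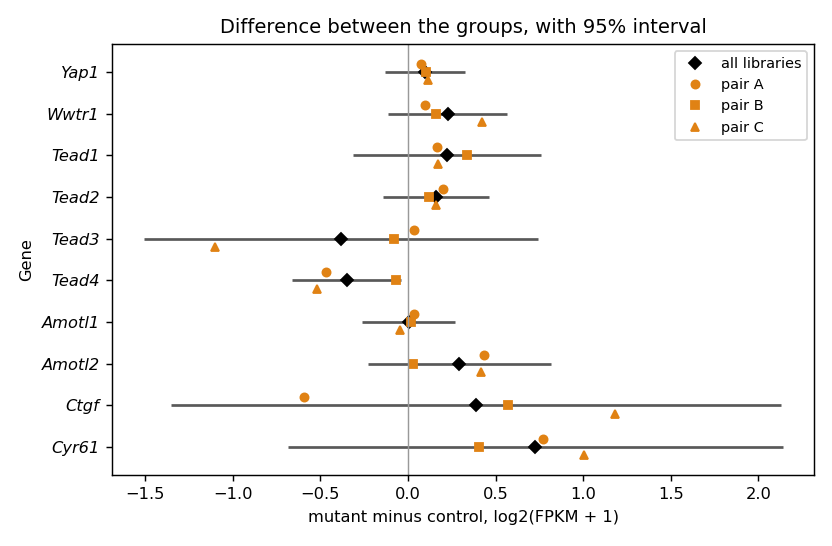
Difference between the groups for each member on the log2(FPKM + 1) scale, mutant minus control, as the limma estimate over all libraries (diamond) with its 95% interval (line) and as the difference within each pair. The intervals come from the fit without the pair as a block. In that fit only the interval of Tead4 lies wholly on one side of 0, and those of Ctgf and Cyr61 are the widest.

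Cyr61 is also an early response gene, of the kind switched on by serum, by mechanical force and by cell dissociation. The 12 early response genes listed (Fos, Fosb, Jun, Junb, Atf3, Egr1 and others) summed to 2572, 3164 and 2994 FPKM in mutants A to C, against 1736, 3721 and 2203 FPKM in controls A to C. In both groups the order of the libraries was B, then C, then A, as it was for Cyr61. Ctgf had another order, C, then B, then A, in both groups. The part of the early response genes in the level of Cyr61 was not tested. Of these 12 genes 0 passed the test (limma), with 1 at an unadjusted p under 0.05, Fosb, against 8.1% of all rows. With the pair as a block there were 3, in both directions, against 12.3% of all rows, and 0 passed the adjusted test. Across all 12 the log2 fold changes were positive in 7 and negative in 5, with a median of 0.38. Fosb averaged 120 ± 18.9 FPKM in mutant and 75.6 ± 31.6 FPKM in control libraries (SD, n = 3 each; limma adjusted p = 0.603). Dusp1 was lower in the mutant in all 3 pairs, at 225 ± 51.0 FPKM in mutant and 321 ± 95.2 FPKM in control libraries (limma log2 fold change -0.50, adjusted p = 0.698).

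**Figure D4:**
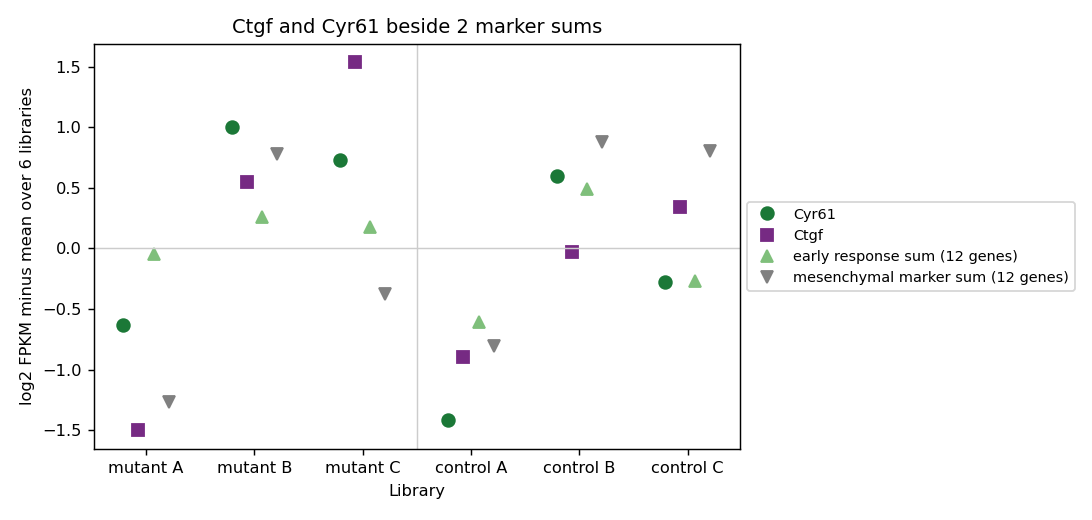
log2 FPKM of Cyr61 and Ctgf and of the summed early response genes and mesenchymal markers in each library, each minus its own mean over the 6 libraries. Cyr61 is highest in mutant B and Ctgf in mutant C, and all 4 quantities lie below their mean in mutant A and control A.

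The members differed in how much they varied within a group, with Ctgf and Cyr61 at the top. The pooled SD within groups, on the log2(FPKM + 1) scale, was 0.09 for Yap1, 0.13 for Amotl1, 0.16 for Tead2, 0.16 for Tead4 and 0.19 for Wwtr1, beside a median of 0.18 over all rows tested. It was 0.33 for Amotl2, 0.33 for Tead1 and 0.74 for Tead3. Ctgf had 1.17 and Cyr61 0.94, and 0.821% of rows tested had a larger value than Ctgf and 1.48% a larger value than Cyr61. The direction was the same in all 3 pairs for 7 of the 10 members and for 36.8% of all rows. In 6 of them (Yap1, Wwtr1, Tead1, Tead2, Amotl2 and Cyr61) the mutant was higher, against 19.6% of all rows, and in Tead4 it was lower, against 17.2%. A direction shared by 3 pairs is not a test.

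Rows whose pattern over the 6 libraries lay closest to that of Ctgf and Cyr61 were sought by the root mean square distance of centred log2(FPKM + 1), among 10815 rows with a plain symbol. Those nearest to Cyr61 were Dpep1 (distance 0.11), Cebpb (0.16) and Neat1 (0.21). Dpep1 was low, at 1.07, 5.97 and 4.65 FPKM in mutants A to C, against 0.364, 3.38 and 1.90 FPKM in controls A to C. Cebpb stood at 18.3, 81.4 and 65.2 FPKM in mutants A to C, against 13.4, 52.8 and 32.02 FPKM in controls A to C. Those nearest to Ctgf were Myl9 (0.35), Bgn (0.40) and Kank4 (0.41), a looser likeness. Myl9 stood at 23.9, 74.4 and 113 FPKM in mutants A to C, against 38.4, 77.4 and 84.9 FPKM in controls A to C. Ctgf and Cyr61 lay at a distance of 0.66 from each other, and 80 rows were nearer to Ctgf than Cyr61 was. By nearness to Cyr61, Ctgf ranked 549 among the rows compared. The distance is a description over 6 libraries.

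Beyond the members, 44 other genes of the pathway were listed and 37 had a mean of at least 1 FPKM. Of these 37, 0 passed the limma test, with 4 at an unadjusted p under 0.05 (Map4k4, Ptpn14, Sav1 and Nuak2), against 8.1% of all rows. With the pair as a block 0 passed the adjusted test. Its unadjusted p was under 0.05 for 4 of 17 kinases and adaptors tested (Map4k4, Sav1, Ptpn14 and Limd1), against 12.3% of all rows. The same held for 6 of 18 other targets tested (Ptpn14 again, Crim1, Igfbp3, Foxf2, Axl and Nt5e), in both directions, and for Vgll4 and Wisp1. Among the Hippo kinases and their adaptors 17 of 18 were tested, 11 with a positive and 6 with a negative log2 fold change and a median of 0.06. In 3 of them, or 17.6%, every mutant library was above every control library, against 7.12% of all rows. These were Map4k4, a kinase that can act upstream of Lats1 and Lats2, Sav1, the scaffold of Stk3 and Stk4, and Ptpn14, a phosphatase that binds YAP. Map4k4 averaged 126 ± 23.9 FPKM in mutant and 94.5 ± 8.44 FPKM in control libraries (log2 fold change 0.40 ± 0.15, adjusted p = 0.593). Sav1 averaged 60.2 ± 3.85 and 51.0 ± 2.36 FPKM in mutant and control libraries (0.23 ± 0.09, adjusted p = 0.606). Ptpn14 averaged 13.8 ± 1.12 and 11.4 ± 0.453 FPKM (0.25 ± 0.10, adjusted p = 0.598). Frmd6, an upstream adaptor, was the fourth by p, at 21.3 ± 1.43 FPKM in mutant and 25.3 ± 3.1 FPKM in control libraries (-0.23 ± 0.12, adjusted p = 0.682). The kinases at the centre of the pathway had log2 fold changes of 0.04 for Stk3, 0.08 for Stk4, -0.02 for Lats1 and -0.13 for Lats2.

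The 19 other target genes come from a signature of YAP and TAZ targets drawn up in tumours, and 18 were tested, 8 with a positive and 10 with a negative log2 fold change and a median of -0.09. In 4 of them, or 22.2%, every mutant library was above every control library, against 7.12% of all rows: Ptpn14, Nuak2, Crim1 and Asap1. In 0 of the 18 was every mutant library below every control library, against 6.57% of all rows. These counts are a description of the list. The kinase Nuak2 averaged 6.27 ± 1.87 FPKM in mutant and 3.99 ± 0.674 FPKM in control libraries (log2 fold change 0.52 ± 0.21, adjusted p = 0.601). Crim1, a membrane protein that binds BMPs, was at 36.5, 36.0 and 91.2 FPKM in mutants A to C, against 26.1, 29.1 and 31.6 FPKM in controls A to C (0.76 ± 0.35, adjusted p = 0.64). Mutant C stood apart there. Asap1 averaged 23.2 ± 3.17 and 19.4 ± 0.819 FPKM (0.25 ± 0.12, adjusted p = 0.655). Other targets lay on the other side of 0, such as Foxf2 and Axl, with log2 fold changes of -0.92 and -0.61 (adjusted p = 0.782 and 0.749). Both were highest in control B, control C and mutant B, the libraries with the highest mesenchymal sums, and the part of those cells was not tested. The target most used beside Ctgf and Cyr61, Ankrd1, had a mean of 0.382 FPKM and was not tested.

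Of the other CCN genes, Nov and Wisp1 were tested. Wisp1 averaged 2.9 ± 2.17 FPKM in mutant and 6.07 ± 2.97 FPKM in control libraries (log2 fold change -0.91 ± 0.47, adjusted p = 0.684), and Nov 1.76 ± 0.219 and 1.94 ± 0.258 FPKM. VGLL proteins compete with YAP and TAZ for TEAD. Vgll4 was the one tested, at 43.1, 65.5 and 48.6 FPKM in mutants A to C, against 66.8, 69.0 and 60.9 FPKM in controls A to C. Mutants A and C were below all controls while mutant B was not (log2 fold change -0.34 ± 0.16, adjusted p = 0.655). Vgll1 and Vgll2 were listed at 0 in all libraries, and Vgll3 had a mean of 0.961 FPKM.

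**Figure D5:**
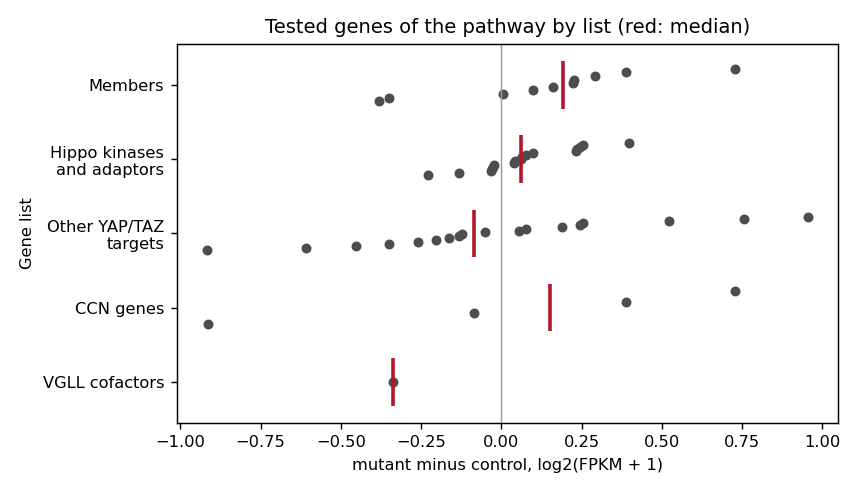
log2 fold change, mutant minus control, of the tested genes of the pathway by list (points, spread vertically for sight only), with the median of each list in red. Amot is not drawn. Ctgf and Cyr61 are drawn among both the members and the CCN genes, and Lats2 and Ptpn14 among both the kinases and adaptors and the other targets. The kinases and adaptors gather near 0, and the other targets spread to both sides.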

How the data were processed

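RNA was measured in 6 libraries of sorted lung endothelial cells, 3 mutant and 3 control. Per the labels' protocols, 100 to 200 ng of RNA went into poly(A) libraries that were read from both ends for 76 nt, on build mm10. The submitters' processing notes name Cufflinks 2.2.1, Cuffdiff, Bowtie2 2.2.3 and TopHat2 2.0.14. The authors deposited FPKM for each library in 1 table, beside their log2 fold change and their p-value; recomputation showed these to be the mean of the log2 ratios within letter pairs and a paired test over them. Count models do not suit FPKM and were left out. The 11693 rows averaging 1 FPKM or more were fitted with limma 3.58.1 in R 4.3.3 on log2(FPKM + 1), with Benjamini-Hochberg adjustment and a trended empirical Bayes variance, after a check on simulated data. This scale understates the change of low genes. Errors are SD for levels and SE for fold changes. Deviations from the group means correlated across rows at 0.36, 0.27 and 0.19 between libraries sharing the letter A, B or C, all above the threshold of 0.1, so the letters were taken as pairs. The pairing comes from the titles and this check. The main fit has no block, so its SE, intervals and p-values do not use the pairs. With the block the SE of each member was smaller. It was 0.10 against 0.23 for Tead1, 0.12 against 0.22 for Amotl2, 0.25 against 0.47 for Tead3 and 0.34 against 0.73 for Ctgf. The members and gene lists were chosen with earlier results of these data known. Named were all members and, in each pathway list, the up to 4 tested genes of lowest p, the 3 rows nearest to Ctgf and to Cyr61, and Pecam1, Cdh5 and Kdr for level. Lats1, Lats2, Stk3, Stk4, Limd1, Foxf2, Axl, Igfbp3, Nt5e, Ankrd1, Cldn5, Fosb, Dusp1, Hopx, Ager, Pdpn, Gprc5a, Spock2, Cd37 and the genes under the filter were added after their values were seen. Alternatives changed the pseudocount, the filter, the scaling or the variance model, or used the block, a term for the prefix of the description label (pair A against pairs B and C), or fewer libraries.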

Additional observations from a re-analysis of the deposited data

How the results depend on the processing

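No member and none of the other pathway genes tested passed under any of the 15 alternatives, and the lowest adjusted p of a member was 0.248, for Cyr61 with the pair as a block (limma). With this replicate block 6 rows were called over the whole table, against 16 without it, and the block changed no member's call. The count over the table was 10 with a filter at 5 FPKM, 5 in pairs B and C alone (4 libraries), and 6 to 10 when a library was left out. Amotl1 changed sign with median-of-ratios scaling (-0.0064) and in pairs B and C (-0.011), and lay between -0.076 and 0.069 when a library was left out. Ctgf lay between -0.27 and 1.23, with -0.27 without mutant C. With a library left out, Cyr61 lay between 0.21 and 1.23, Amotl2 between 0.08 and 0.44, Tead1 between 0.055 and 0.42 and Tead3 between -0.86 and -0.10, the values nearest to 0 coming without control A, except for Tead3 (without control C). The largest change of Tead3 also came without control A. The causes were not tested. Under the filter at 5 FPKM Tead3 had no value. Rescaling put the median over all rows at 0.01 to 0.02, against 0.02 without it. The FPKM table does not give absolute depth, so the counting error of low genes such as Tead3 is not known.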
